A study of Homo sapiens with 6 samples.

Results

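The genes described here are 9 genes of the p53 pathway and of cell cycle arrest, listed by name as MDM2, CDKN1A, CDKN1B, CDKN2C, CDKN2D, TP53INP1, BBC3, BAX and FAS, out of 58288 genes in the table of counts. All 9 passed the filter on low counts that left 14415 genes for testing. They were measured in T24, a human bladder cancer cell line, after transfection with a negative control siRNA (NC) or with 1 of the siRNAs si-circ235-1 and si-circ235-2, which are directed at the back-splice site of the circular RNA circ235, made from exons of CCNY. Each of the 3 groups had 2 libraries, described by the study as biological replicates, and every library came from the same cell line with no further treatment in the labels. The libraries held 17152017 and 15855386 counts in NC, 15588108 and 19912893 in si-circ235-1, and 15373992 and 17562690 in si-circ235-2. RNA was selected by its poly(A) tail, which circular RNA lacks, so the knockdown of circ235 itself has no value in these counts. Each of the 9 genes had between 59 (TP53INP1) and 6244 (CDKN1A) counts in a library, and 2 libraries per group limit the precision more than counting error does. A bulk library cannot tell fewer expressing cells from less RNA per cell.

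p53 is a transcription factor that responds to DNA damage and other stress by raising genes that stop the cell cycle or start cell death, and MDM2 is both its target and the ubiquitin ligase that leads to its degradation. p21 (CDKN1A) and p27 (CDKN1B) belong to the CIP/KIP inhibitors, which bind cyclin-CDK complexes, while p18 (CDKN2C) and p19 (CDKN2D) belong to the INK4 inhibitors, which bind CDK4 and CDK6. In cell death, BBC3 (PUMA) is a BH3-only protein that frees or activates BAX, which opens pores in the mitochondrial outer membrane, and FAS is a receptor at the cell surface that recruits caspase-8. TP53INP1 is a stress-induced p53 target that takes part in p53 phosphorylation and autophagy. Several of these genes also answer to factors other than p53.

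Short sequences place these genes beside the microRNA that the study assigns to circ235 and beside p53. miR-330-5p lies on the minus strand of chromosome 19 (GRCh38.p14, chr19:45639049-45639070), and its mature sequence from RefSeq is shown because matches to its seed, nucleotides 2 to 8 and in capitals here, were counted in the 3' UTRs.
hsa-miR-330-5p: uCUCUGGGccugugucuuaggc
The match to that seed, CCCAGAG, was found in the longest GENCODE 3' UTR of 0 of the 9 genes, while 20.5% of 12145 tested genes with a 3' UTR held it. The shorter match to nucleotides 2 to 7 occurred at 2 places in TP53INP1 and at 1 in BBC3, so in 2 of the 9 genes, beside 43.6% of the tested genes. The MDM2 and FAS sequences below hold the best matches to the consensus p53 response element (in capitals), searched on both strands in windows from 250 bases before to 50 bases after RefSeq start sites, with the C and G of each core kept and no spacer.
MDM2: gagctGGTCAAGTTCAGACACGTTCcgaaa
FAS: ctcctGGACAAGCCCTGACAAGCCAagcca
Each matched at 18 of 20 positions. The MDM2 match lies on the plus strand at chr12:68808923-68808942, in an intron of 4 of the 15 MDM2 transcripts of the GENCODE basic set and outside the other 11, and the FAS match at chr10:88991309-88991328, in an intron of 4 of 4 FAS transcripts. Of 35116 windows in the genome, 0.285% held a match with at most 2 mismatches. The best match had 3 mismatches in CDKN1B, 5 in CDKN1A, 6 in BAX, 7 in CDKN2C and 9 in CDKN2D. No match with the core letters was found in the BBC3 window. At most 3 mismatches were found in 1.12% of all windows and at most 4 in 4.05%, and no share was taken beyond that. Sites further from a start, or with a spacer, lay outside this search, so these numbers do not rank the genes as p53 targets. The TP53INP1 window was not analysed here. These matches are descriptions of sequence, and binding was not measured.

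Few of the 9 genes changed under si-circ235-1 and more under si-circ235-2, as did the genes of the whole table. Levels are given as CPM, counts scaled to library size after TMM normalization. A gene is referred to as called when its adjusted p was under 0.05 by the quasi-likelihood test of edgeR, with the adjustment of Benjamini and Hochberg taken over all 14415 genes. BAX was the 1 gene of the 9 called under si-circ235-1 against NC, and it was lower. Over all genes, 5.88% were called in that comparison. Under si-circ235-2 against NC, 3 of 9 were called, namely CDKN2C, BBC3 and BAX, all lower, beside 31.4% of all genes. Between si-circ235-2 and si-circ235-1, 4 of 9 were called, with CDKN1A higher and CDKN2C, CDKN2D and BBC3 lower under si-circ235-2, beside 39.7% of all genes. In each comparison the libraries of the groups did not overlap for 6 of the 9 genes, while this held for 55.0% of all genes under si-circ235-1, 71.4% under si-circ235-2 and 72.1% between the siRNAs. CDKN1A shares 4.79% of its exon bases with DINOL and MDM2 5.91% with AC025423.4, each on the opposite strand, and counts without strand cannot tell such partners apart. The median log2 fold change of the 9 genes was 0.11 under si-circ235-1, -0.23 under si-circ235-2 and -0.26 between them, and that of all genes was -0.03, -0.00 and 0.04. The comparisons with NC share the NC libraries. A gene that was not called is not shown to be unchanged. In 1 of the alternatives to this fit, each library was freed of a smooth trend along transcript length and GC content (the trend-free fit). It called 6.42% of all genes higher and 6.70% lower under si-circ235-1, and 12.4% and 13.6% under si-circ235-2. Between the siRNAs these shares were 20.7% and 19.3%.

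**Figure D1:**
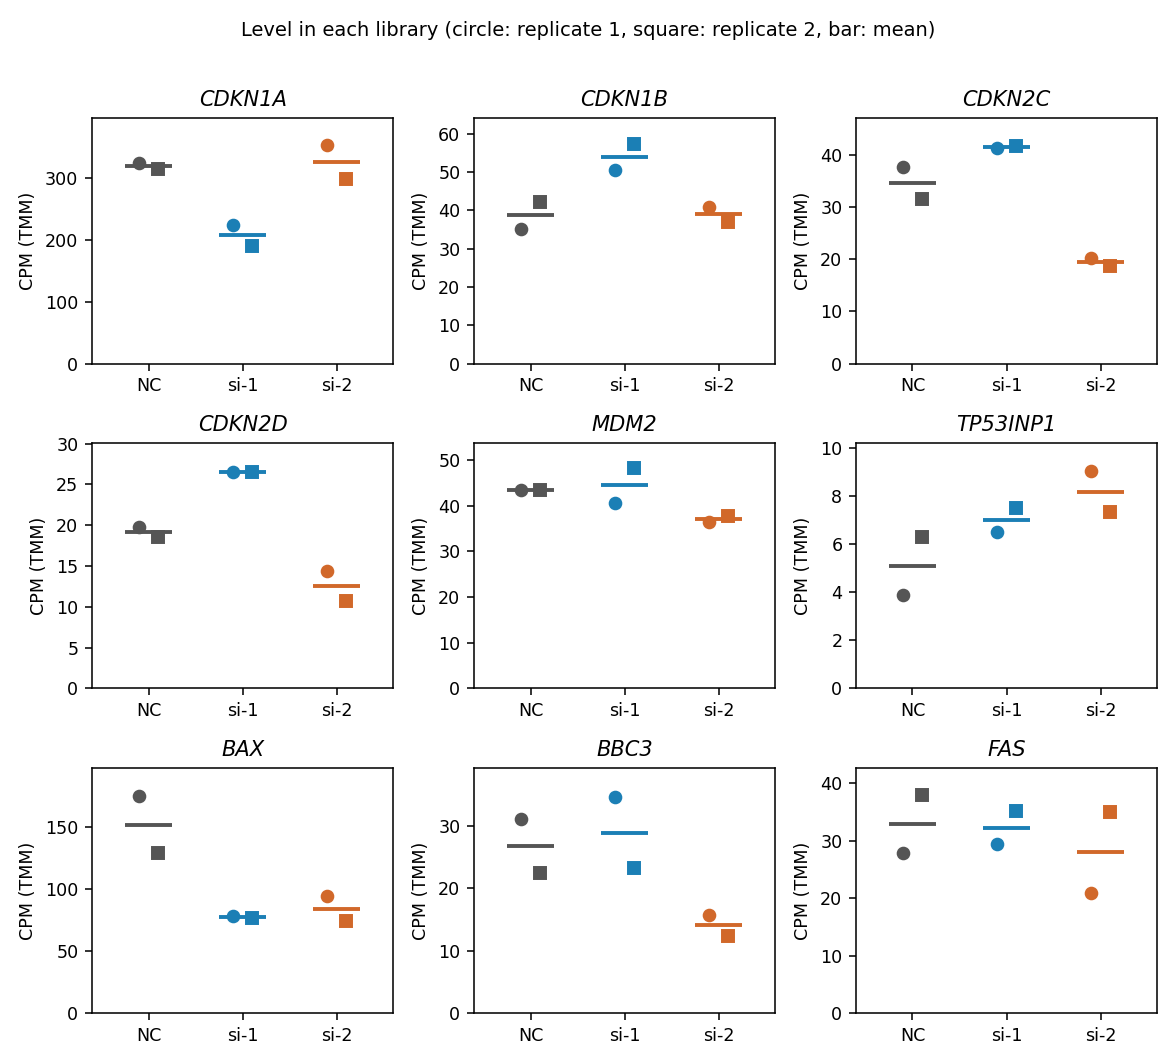
Level of each of the 9 genes (vertical axis, CPM after TMM normalization, from 0) in NC, si-circ235-1 (si-1) and si-circ235-2 (si-2), with a circle for replicate 1, a square for replicate 2 and a bar at the mean. BAX lay at 129 and 175 CPM in NC and at or below 94.3 CPM in the 4 siRNA libraries, while CDKN1A was lower in the si-circ235-1 libraries than in the other 4.

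Set side by side per kilobase of the longest transcript and scaled to the same total in each library, the mean level in NC was 281 for CDKN1A and 220 for BAX, far above the other 7 genes. CDKN1B (29.5), BBC3 (28.6), CDKN2D (26.9), FAS (26.2) and CDKN2C (23.6) followed on the same scale. The NC libraries of each of these 5 overlapped those of the next in this order. Further apart, those of CDKN2C (23.1 and 24.1) lay below those of BBC3 (27.2 and 30.1) and CDKN2D (24.8 and 29.1). MDM2 (6.88) and TP53INP1 (1.85) were the lowest, MDM2 with a longest transcript of 12633 nucleotides. All other values are CPM, which compare libraries and not genes.

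Among the CIP/KIP inhibitors, CDKN1A and CDKN1B lay on opposite sides of NC under si-circ235-1. CDKN1A (ENSG00000124762, plus strand of chromosome 6, 36676460 to 36687339 on GRCh38) had 325 and 314 CPM in NC, 224 and 190.2 in si-circ235-1, and 353 and 298 in si-circ235-2. Both si-circ235-1 libraries were thus below the other 4, and the si-circ235-2 libraries lay on either side of NC. NC averaged 319 ± 7.73 CPM, si-circ235-1 207 ± 23.7 and si-circ235-2 326 ± 38.4 (SD, n = 2). CDKN1A was higher with si-circ235-2 than with si-circ235-1 by 0.65 on the log2 scale (SE 0.19, adjusted p = 0.0197, edgeR). Against NC, it stood at a log2 fold change of -0.63 with si-circ235-1 (SE 0.19, adjusted p = 0.0760, edgeR), which missed the threshold, and 0.03 under si-circ235-2 (95% interval -0.39 to 0.45). DESeq2 did call it under si-circ235-1, at -0.60 (adjusted p = 0.0334). The difference between the siRNAs was no longer called without si-circ235-1 replicate 2 (0.53, adjusted p = 0.151, edgeR) or without si-circ235-2 replicate 1 (0.53, adjusted p = 0.145, edgeR). CDKN1A was called lower under si-circ235-1 without TMM factors (-0.70, adjusted p = 0.0489, edgeR) and higher under si-circ235-2 in the trend-free fit (0.44, adjusted p = 0.0314, edgeR).

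CDKN1B (ENSG00000111276, plus strand of chromosome 12, 12715058 to 12722371) had 35.2 and 42.3 CPM in NC, 50.6 and 57.3 in si-circ235-1, and 40.9 and 37.1 in si-circ235-2. Here the si-circ235-1 libraries were the highest of the 6, and those of si-circ235-2 fell within the range of NC. Against NC it differed by 0.48 on the log2 scale with si-circ235-1 (95% interval 0.05 to 0.90, adjusted p = 0.156, edgeR) and 0.01 under si-circ235-2 (-0.42 to 0.44), and it was -0.47 between the siRNAs (adjusted p = 0.0771, edgeR). None of the 3 values passed the threshold, but in the trend-free fit the difference between the siRNAs did (-0.59, adjusted p = 0.0121, edgeR) and the value under si-circ235-2 against NC was -0.12.

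The INK4 inhibitors p18 and p19 were lower with si-circ235-2 than with the other siRNA. CDKN2C (ENSG00000123080, plus strand of chromosome 1, 50960745 to 50974633) had 37.8 and 31.5 CPM in NC, 41.3 and 41.8 in si-circ235-1, and 20.4 and 18.7 in si-circ235-2. The si-circ235-2 libraries were the lowest and no group overlapped another. The log2 level of CDKN2C fell by 0.83 between NC and si-circ235-2 (SE 0.20, adjusted p = 0.0116, edgeR) and was lower than under si-circ235-1 by 2.13-fold (log2 -1.09, SE 0.20, adjusted p = 0.00225, edgeR). Under si-circ235-1 against NC it was 0.26 (adjusted p = 0.450, edgeR). The fall against NC was lost without NC replicate 1 (-0.70, adjusted p = 0.111, edgeR) and without TMM factors (-0.56, adjusted p = 0.0629, edgeR), whereas the difference between the siRNAs was called in 13 of 13 alternatives.

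CDKN2D (ENSG00000129355, minus strand of chromosome 19, 10566462 to 10569059) had 19.8 and 18.6 CPM in NC, 26.6 and 26.5 in si-circ235-1, and 14.4 and 10.7 in si-circ235-2. The 3 groups did not overlap, with si-circ235-1 above NC and si-circ235-2 below it. Only the difference between the siRNAs was called, at 2.12-fold lower under si-circ235-2 (log2 -1.08, SE 0.23, adjusted p = 0.00466, edgeR), and it was called in 13 of 13 alternatives. Against NC the log2 fold change was 0.47 under si-circ235-1 (adjusted p = 0.233, edgeR) and -0.62 under si-circ235-2 (adjusted p = 0.0658, edgeR). The latter was called without si-circ235-2 replicate 1 (-0.85, adjusted p = 0.0308, edgeR) and turned to 0.10 in the trend-free fit (adjusted p = 0.714, edgeR). There CDKN2D was called higher under si-circ235-1 (0.63, adjusted p = 0.0477, edgeR), and the difference between the siRNAs was -0.53.

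MDM2 and TP53INP1, the p53 feedback and stress genes, were called in none of the 3 comparisons. MDM2 (ENSG00000135679, plus strand of chromosome 12, 68808176 to 68850686) had 43.4 and 43.5 CPM in NC, 40.6 and 48.3 in si-circ235-1, and 36.5 and 37.7 in si-circ235-2. The si-circ235-2 libraries were below the other 4, and those of si-circ235-1 lay on either side of NC. The log2 fold change was 0.04 under si-circ235-1 (95% interval -0.38 to 0.45), -0.23 under si-circ235-2 (-0.64 to 0.19) and -0.26 between them (-0.68 to 0.15). In the trend-free fit MDM2 was called lower under si-circ235-2, at -0.84 against NC (adjusted p = 0.0110, edgeR) and -0.67 against si-circ235-1 (adjusted p = 0.0146, edgeR). TP53INP1 (ENSG00000164938, on the minus strand of chromosome 8) was the least abundant of the 9, at 3.87 and 6.30 CPM in NC, 6.51 and 7.48 in si-circ235-1, and 9.03 and 7.31 in si-circ235-2. Its NC libraries were the lowest, with a log2 fold change of 0.46 for si-circ235-1 (adjusted p = 0.383, edgeR) and 0.68 under si-circ235-2 (95% interval 0.01 to 1.35, adjusted p = 0.110, edgeR). Without NC replicate 2, TP53INP1 was called under si-circ235-2 (1.09, adjusted p = 0.0465, edgeR).

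Of the death genes, BAX was lower under each siRNA, BBC3 was lower under si-circ235-2, and FAS was called in no comparison. BAX (ENSG00000087088, plus strand of chromosome 19, 48954815 to 48961798) had 175 and 129 CPM in NC, 78.1 and 76.9 in si-circ235-1, and 94.3 and 73.9 in si-circ235-2. All 4 siRNA libraries were below both NC libraries, and the siRNA groups overlapped. The log2 level of BAX fell by 0.97 with si-circ235-1 (1.96-fold lower, SE 0.21, adjusted p = 0.0268, edgeR) and fell by 0.85 with si-circ235-2 (1.80-fold lower, SE 0.21, adjusted p = 0.0117, edgeR). It was 1 of 92 genes (0.638% of those tested) called lower under both siRNAs, a count in which the NC libraries are shared. The call under si-circ235-1 was lost when any of its own or the NC libraries was left out, at -0.73 without NC replicate 1 (adjusted p = 0.136), -1.13 without NC replicate 2 (adjusted p = 0.0503), -0.98 without si-circ235-1 replicate 1 (adjusted p = 0.0857) and -0.96 without si-circ235-1 replicate 2 (adjusted p = 0.210), all from edgeR. That under si-circ235-2 was lost without NC replicate 1 (-0.62, adjusted p = 0.119, edgeR) or si-circ235-2 replicate 2 (-0.68, adjusted p = 0.0813, edgeR), and in the trend-free fit (-0.21, adjusted p = 0.221, edgeR).

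BBC3 (ENSG00000105327, minus strand of chromosome 19, 47220822 to 47232766) had 31.1 and 22.5 CPM in NC, 34.6 and 23.2 in si-circ235-1, and 15.7 and 12.4 in si-circ235-2. The libraries of NC and si-circ235-1 overlapped, and those of si-circ235-2 were below all of them. The log2 level of BBC3 fell by 0.93 from NC to si-circ235-2 (1.91-fold lower, SE 0.27, adjusted p = 0.0249, edgeR) and was 2.05-fold lower than under si-circ235-1 (log2 -1.04, SE 0.27, adjusted p = 0.0120, edgeR). Under si-circ235-1 against NC its log2 fold change was 0.11 (95% interval -0.48 to 0.70). The call against NC was lost without NC replicate 1 (-0.68, adjusted p = 0.217), without si-circ235-2 replicate 2 (-0.77, adjusted p = 0.0707) and without TMM factors (-0.66, adjusted p = 0.0858), and the call between the siRNAs without si-circ235-1 replicate 1 (-0.72, adjusted p = 0.102) and without TMM factors (-0.71, adjusted p = 0.0564), all from edgeR. In the trend-free fit, both calls were lost and the value against NC changed sign, to 0.15 (adjusted p = 0.628, edgeR), with -0.12 between the siRNAs (adjusted p = 0.662, edgeR).

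FAS (ENSG00000026103, plus strand of chromosome 10, 88990582 to 89015785) had 27.9 and 38.0 CPM in NC, 29.5 and 35.1 in si-circ235-1, and 21.0 and 35.1 in si-circ235-2. All 3 groups overlapped, and the libraries of si-circ235-2 spanned the widest range. The log2 fold change was -0.03 under si-circ235-1 (95% interval -0.62 to 0.57) and -0.23 under si-circ235-2 (-0.83 to 0.36). FAS shares 8.93% of its exon bases with ACTA2 on the opposite strand, and the counting did not use strand. ACTA2, however, stayed at or below 0.979 CPM in each library.

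**Figure D2:**
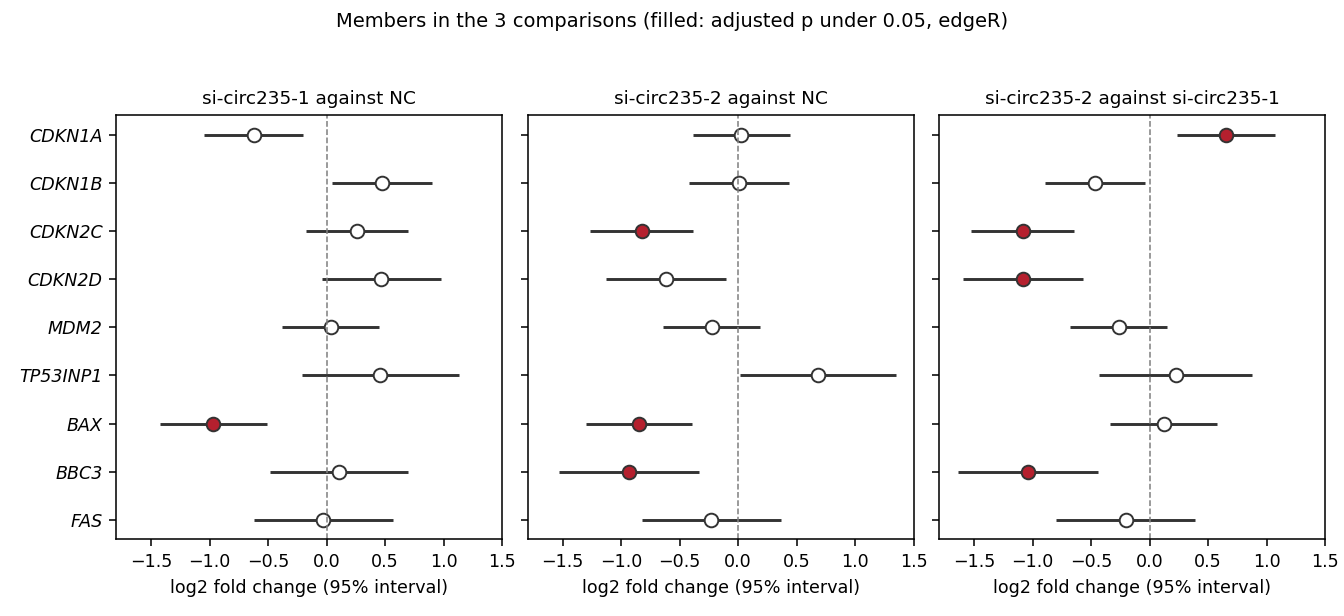
Log2 fold change (horizontal axis) of each of the 9 genes with its 95% interval in the comparison of each siRNA with NC and of the siRNAs with each other; filled points were called (edgeR adjusted p under 0.05). The filled points are BAX under si-circ235-1, CDKN2C, BAX and BBC3 under si-circ235-2, and CDKN1A to the right with CDKN2C, CDKN2D and BBC3 to the left between the siRNAs.

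Of 17 genes listed as p53 and its regulators, 16 were tested, MDM2 among them. None was called by edgeR as fitted here or by DESeq2 under si-circ235-1, where 6 had an unadjusted p under 0.05 in edgeR and 5 in DESeq2. In the alternatives of edgeR, COP1, a p53 ubiquitin ligase, was called higher in the trend-free fit (0.56, adjusted p = 0.0291), and TP53BP1 was called lower both without the filter on low counts and with the 2 conditions alone. Under si-circ235-2 against NC, 5 were higher and 1 was lower, beside 15.7% of all genes in each direction. In the trend-free fit, these became 2 higher (EP300 and HIPK2) and 3 lower (DAXX, MDM2 and CHEK2), beside 12.4% and 13.6% of all genes. There MDM4 (0.29), USP7 (0.05) and TP53BP1 (0.61) were no longer called. EP300, the acetyltransferase and coactivator of p53, had 24.3 and 33.5 CPM in NC and 87.1 and 95.7 in si-circ235-2, a log2 fold change of 1.66 (SE 0.21, adjusted p = 0.00179, edgeR). TP53BP1 (1.37), a mediator of the DNA damage response, HIPK2 (1.35), a kinase that phosphorylates p53, MDM4 (0.88), a relative of MDM2 that inhibits p53, and USP7 (0.65), a deubiquitinase of p53 and MDM2, were the others called higher. DAXX, a partner of MDM2 and USP7, was lower (-0.91, adjusted p = 0.00888, edgeR), with 65.7 and 53.8 CPM in NC and 34.7 and 28.97 in si-circ235-2. Between the siRNAs, 4 of the 16 were higher under si-circ235-2 (EP300, TP53BP1, HIPK2 and MDM4) and RCHY1, another p53 ubiquitin ligase, was lower, beside 21.1% of all genes higher and 18.6% lower. In the trend-free fit 4 were higher and 5 lower. Without TMM factors, where the median of all genes was 0.37, 6 were higher and 0 lower. MDM4 had 19.02 and 21.6 CPM in NC, 17.8 and 18.1 in si-circ235-1 and 40.9 and 33.7 in si-circ235-2.

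Other known p53 targets did not share 1 direction under either siRNA. Of 34 targets besides the 9 genes, taken from a list of arrest and repair genes and a list of death genes, 33 were tested and SPATA18 was not. Under si-circ235-1 against NC, 2 were higher and 1 was lower, beside 2.24% and 3.64% of all genes. The higher ones were BTG2, an antiproliferative factor, at 5.77 and 6.66 CPM in NC and 13.7 and 12.6 in si-circ235-1 (log2 1.08, adjusted p = 0.0317, edgeR), and TIGAR, a phosphatase that lowers glycolytic flux, at 23.0 and 26.5 CPM in NC and 40.1 and 44.9 in si-circ235-1 (log2 0.78, adjusted p = 0.0458, edgeR). ZNF385A, a zinc finger protein that binds p53, was lower (-1.37, adjusted p = 0.0181, edgeR), with 32.6 and 20.5 CPM in NC and 10.5 and 10.05 in si-circ235-1. Without TMM factors, BTG2 and TIGAR were no longer called, while ZNF385A was. In the trend-free fit BTG2, TIGAR and ZNF385A were all called.

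Under si-circ235-2 against NC, 14 of the 33 targets were called, 5 higher and 9 lower, beside 15.7% of all genes in each direction. This balance changed with the scaling, to 10 higher and 4 lower without TMM factors, where the median of all genes was at 0.25, and to 7 higher and 6 lower in the trend-free fit. The higher ones were the DNA polymerase POLH (log2 1.07), the membrane protein PERP (0.87), ZMAT3 (0.79) and SUSD6 (0.79), and the death receptor TNFRSF10B (0.77). The furthest lower ones were PIDD1 (-1.45), which activates caspase-2, the mitochondrial reductase FDXR (-1.15), TP53I3 (-1.15), PHLDA3, an inhibitor of AKT (-1.12), and BLOC1S2 (-1.06). The genes called also changed in the trend-free fit, where ZMAT3, SUSD6, TNFRSF10B, TP53I3, GDF15 and ZNF385A lost their calls and SESN2, PLK3, BTG2, CCNG1 and PTP4A1 were called higher. PIDD1 had 64.6 and 41.5 CPM in NC and 21.5 and 17.3 in si-circ235-2, and FDXR had 124 and 74.3 in NC and 50.0 and 39.7 in si-circ235-2. Both groups of libraries were apart in each case, although NC replicate 1 was well above NC replicate 2. Without NC replicate 1, 1 of the 33 targets was called in place of 14 (edgeR), and over all genes 769 were called in place of 4530. The median log2 fold change of the 33 targets was 0.03 under si-circ235-1, 0.13 under si-circ235-2 and 0.00 between the siRNAs. Set against si-circ235-1, si-circ235-2 had 7 higher and 6 lower, with 21.1% and 18.6% over all genes, XPC (1.97), POLH (1.16) and ZMAT3 (1.13) among the former and FDXR (-1.58), BLOC1S2 (-1.51), PHLDA3 (-1.42) and PIDD1 (-0.89) among the latter. This balance also changed with the scaling. With the 9 genes kept in their lists, the arrest and repair list had 8 higher and 5 lower and the death list 0 and 2. Without TMM factors, the lists had 9 and 5, and 5 and 0, where the median of all genes was 0.37. In the trend-free fit they had 9 and 7, and 4 and 1.

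The other CDK inhibitors were measured beside the 4 above, and each of the 7 known genes was tested. CDKN2A, which encodes p16 and, in another reading frame, ARF, had 134 and 103 CPM in NC, 107 and 98.8 in si-circ235-1, and 65.5 and 56.7 in si-circ235-2. Its si-circ235-2 libraries were the lowest of the 6, at a log2 fold change of -0.96 against NC (SE 0.19, adjusted p = 0.00553, edgeR), and these gene counts do not separate p16 from ARF. CDKN1C (p57) was low, at 1.64 and 0.92 CPM in NC, 3.08 and 5.53 in si-circ235-1, and 1.53 and 1.24 in si-circ235-2. It was higher under si-circ235-1 (log2 1.76, SE 0.45, adjusted p = 0.0451, edgeR) and differed by -1.64 between the siRNAs (adjusted p = 0.0127, edgeR). CDKN2B (p15) was called in no comparison, at 0.04 under si-circ235-1 and 0.31 under si-circ235-2. Under si-circ235-1 against NC, 1 of the 7 was called higher (CDKN1C) and 0 lower, beside 5.88% of all genes called, and CDKN1C kept its call in 8 of 13 alternatives, not without TMM factors (1.69, adjusted p = 0.0504, edgeR) or with the replicate number as a block. Under si-circ235-2, 0 were higher and 2 lower (CDKN2A and CDKN2C), beside 31.4% of all genes called. In the trend-free fit, CDKN2A was no longer called under si-circ235-2 (-0.18, adjusted p = 0.290, edgeR), and 1 of the 7 was higher (CDKN1A) and 1 lower (CDKN2C).

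p27 is controlled mainly through its destruction by the SCF ligase of SKP1, CUL1, RBX1 and SKP2 with CKS1B, and through FOXO factors that drive its transcription. In the list of 9 such genes edgeR called none under si-circ235-1, with 2 at an unadjusted p under 0.05, and DESeq2 called 1 (SKP1, higher). Under si-circ235-2, where CDKN1B differed from NC by 0.01, 4 were higher and 3 were lower, beside 15.7% of all genes in each direction, and in the trend-free fit 2 were higher (FOXO4 and SKP2) and 3 lower. FOXO4 (1.40), FOXO3 (0.84), FOXO1 (0.78, called in 3 of 13 alternatives) and SKP2 (0.65) were higher on the log2 scale, and SKP1 (-1.04), RBX1 (-0.92) and CKS1B (-0.74) were lower. SKP1 had 306 and 243 CPM in NC, 339 and 515 in si-circ235-1, and 136 and 131 in si-circ235-2. Its level was thus lowest in both si-circ235-2 libraries.

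In the BCL2 family, BAX was the 1 of 3 pore-forming genes called by edgeR as fitted here against NC, lower under each siRNA, where 5.88% and 31.4% of all genes were called. The related BAK1 differed by -0.05 under si-circ235-1 (95% interval -0.47 to 0.38) and 0.22 under si-circ235-2 (-0.20 to 0.65). BOK, the third, had a log2 fold change of -0.68 under si-circ235-1 (adjusted p = 0.0832, edgeR), where DESeq2 called it lower, and -0.24 under si-circ235-2. In edgeR, BOK was called lower under si-circ235-1 without the filter on low counts and with the 2 conditions alone. In the trend-free fit, none of the 3 was called lower under si-circ235-2, and BAK1 (0.69, adjusted p = 0.00727, edgeR) and BOK (0.48, adjusted p = 0.0223, edgeR) were called higher. MCL1, a survival protein, had 191 and 237 CPM in NC, 316 and 308 in si-circ235-1, and 490.4 and 467 in si-circ235-2. The 3 groups did not overlap, with a log2 fold change of 0.54 under si-circ235-1 (SE 0.19, adjusted p = 0.113, edgeR; called by DESeq2 and in the trend-free fit of edgeR, 0.48) and 1.16 under si-circ235-2 (SE 0.19, adjusted p = 0.00303, edgeR). BCL2L2, another survival gene, was higher under si-circ235-2 (0.83, adjusted p = 0.0135, edgeR), and BCL2L1 was called under neither siRNA (-0.48 and -0.40). Of the 8 BH3-only genes, which sense stress and act on the other members, 1 was called under si-circ235-1 and 3 under si-circ235-2, beside 5.88% and 31.4% of all genes. BIK, looked at after its values were seen, had 2.23 and 1.83 CPM in NC, 9.79 and 11.9 in si-circ235-1, and 2.18 and 2.06 in si-circ235-2. It was higher under si-circ235-1 (log2 2.41, SE 0.30, adjusted p = 0.00593, edgeR). Under si-circ235-2, BAD (-1.61) and BBC3 were lower and BMF (1.13), named after its values were seen, was higher. Without TMM factors, where the median of all genes was 0.25, 3 were higher (BCL2L11, HRK and BMF) and 1 was lower (BAD). In the trend-free fit, edgeR called 0 of the 8 under si-circ235-2, where BAD, BMF and PMAIP1 had an unadjusted p under 0.05, while DESeq2, with the trend kept, called 2 (BAD and BBC3). PMAIP1 (NOXA), a p53 target like BBC3, differed by 0.11 under si-circ235-1 and -0.08 under si-circ235-2, neither called.

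Among the death receptors and caspases, 19 of 21 genes were tested, and under si-circ235-2 against NC 5 were called higher and 0 lower, beside 15.7% of all genes in each direction. They included APAF1, the scaffold of the apoptosome (2.75), the TRAIL receptors TNFRSF10A (0.88) and TNFRSF10B (0.77), and CASP8, the initiator caspase of these receptors and of FAS (0.61, adjusted p = 0.0476, edgeR). APAF1 had 3.02 and 7.88 CPM in NC, 5.39 and 7.54 in si-circ235-1, and 32.3 and 41.4 in si-circ235-2. Both si-circ235-2 libraries were thus far above the other 4. Its change was called in 13 of 13 alternatives (adjusted p = 0.00200, edgeR), and that of CASP8 in 5 of 13. The trend-free fit had 6 of the 19 higher and 1 lower, beside 12.4% and 13.6% of all genes, and TNFRSF10B was no longer called (0.39, adjusted p = 0.0538, edgeR). Set against si-circ235-1, si-circ235-2 left 4 of these 19 genes higher and 5 lower, TNFRSF1A (-1.26) among the latter, while 21.1% of all genes were higher and 18.6% lower. Without TMM factors, which put the median of all genes at 0.37, 7 were higher and 1 was lower.

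**Figure D3:**
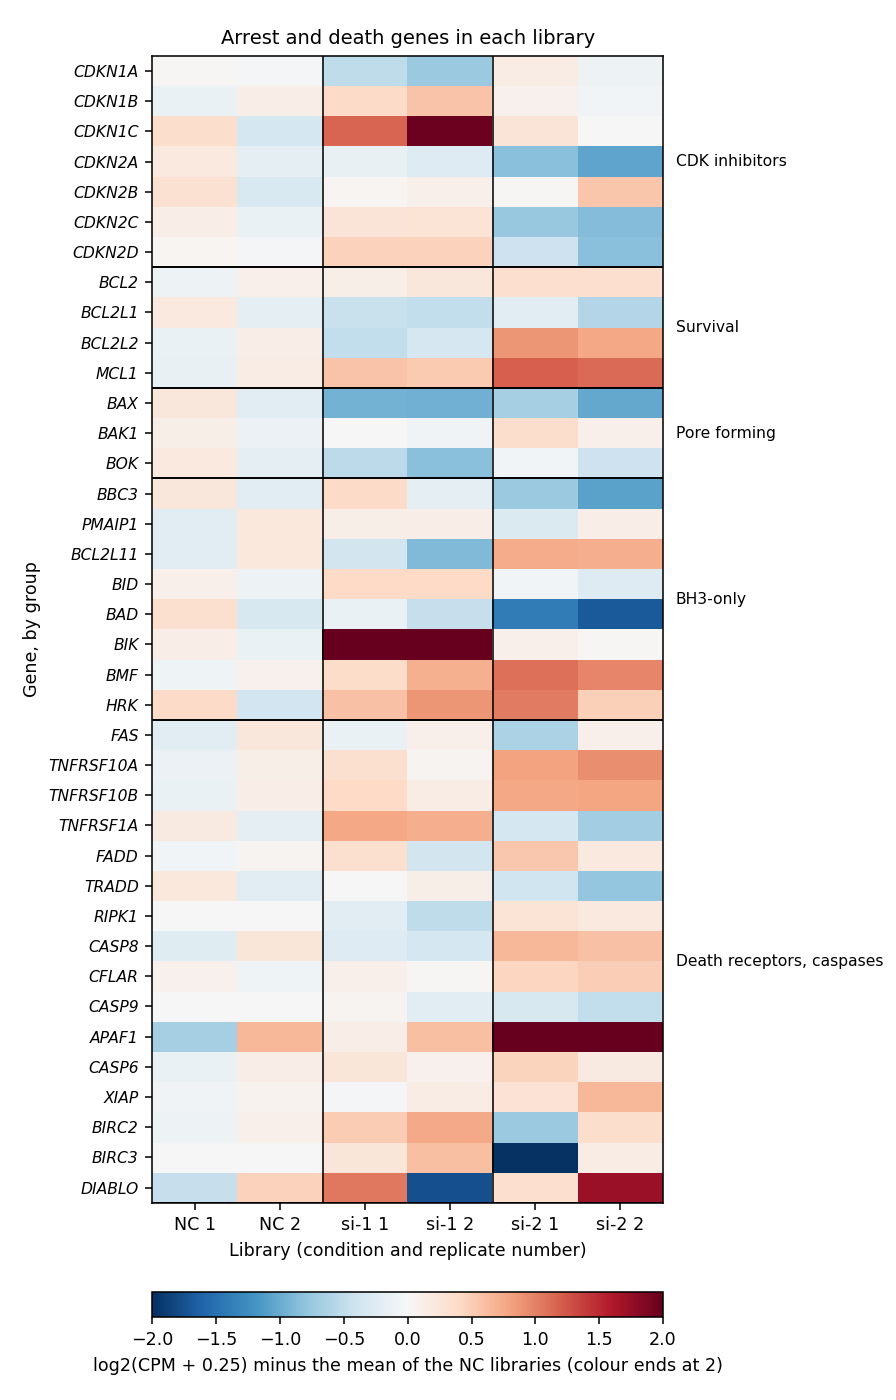
Level of tested CDK inhibitors, BCL2 family genes, death receptors and caspases (rows) in each library (columns), as log2(CPM + 0.25) minus the mean of the NC libraries, red above and blue below NC, with the colour ending at 2 in either direction. BIK is red in the si-circ235-1 libraries, APAF1 is red in both si-circ235-2 libraries, and BAX is blue in all 4 siRNA libraries.

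Many of the calls in these lists were lost when 1 library was left out, a fit in which its group keeps only 1 library. Of 9 list genes called under si-circ235-1, the 9 above and the cell type markers included, 9 were no longer called without si-circ235-1 replicate 2, 8 without NC replicate 1, and 6 each without NC replicate 2 and without si-circ235-1 replicate 1. The lost changes had a median log2 size of 1.08 with all libraries and 1.14 without si-circ235-1 replicate 2. For those lost without NC replicate 1, it was 1.02 with that library and 0.95 without it. Why calls were lost was not tested. Of 41 called under si-circ235-2 against NC, 34 were no longer called without NC replicate 1 (median log2 size 0.85 with it and 0.72 without) and 16 without si-circ235-2 replicate 2 (0.79 and 0.69). The 6 genes APAF1, EP300, HIPK2, MCL1, PIDD1 and PPARG were called there in 13 of 13 alternatives. Between the siRNAs, 24 of 44 called genes were called in 13 of 13 alternatives, CDKN2C, CDKN2D, MDM4, APAF1 and BIK among them.

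Transcript length and GC content moved with the differences across all genes, and the 9 genes differ in both. Under si-circ235-2 against NC, when genes were split into 3 equal bins, the bin with the shortest transcripts (62 to 2456 nucleotides) had a median log2 fold change of -0.49 with 29.95% called lower, and the bin with the longest had 0.41 with 31.47% called higher. The highest bin by GC content had a median of -0.37. Under si-circ235-1 the medians of the length bins were -0.03, -0.07 and -0.00, and the highest GC bin had -0.23. BAX (1358 nucleotides, 58.9% GC), CDKN2D (1422, 61.3%), BBC3 (1838, 69.7%) and CDKN1A (2267, 58.1%) are in the shortest bin and in the highest bin by GC content, while MDM2 and TP53INP1 are in the longest bin and in the lowest by GC content.

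When each library was freed of a smooth trend along length and GC content, the calls under si-circ235-2 against NC changed from CDKN2C, BBC3 and BAX to CDKN2C, CDKN1A and MDM2. CDKN2C stayed lower at -0.56 (adjusted p = 0.0277, edgeR). CDKN1A was called higher and MDM2 lower. Over all genes, 26.0% were called in that fit and comparison, 12.4% higher and 13.6% lower. Under si-circ235-1, BAX stayed lower at -0.81 (adjusted p = 0.00590, edgeR) and CDKN2D was higher, so that 2 of the 9 were called beside 13.1% of all genes, 6.42% higher and 6.70% lower. Between the siRNAs 6 of the 9 were called, CDKN1A (0.86) and BAX (0.60) higher under si-circ235-2 and CDKN2C (-1.07), MDM2, CDKN1B and CDKN2D lower, beside 40.1% of all genes, 20.7% higher and 19.3% lower. APAF1 (2.28), MCL1 (0.74), EP300 (1.07) and PIDD1 (-1.10) kept their calls under si-circ235-2, and FOXO3 (0.19) and BAD (-0.55) lost theirs. The part of length and GC content in the results was not tested beyond this fit.

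**Figure D4:**
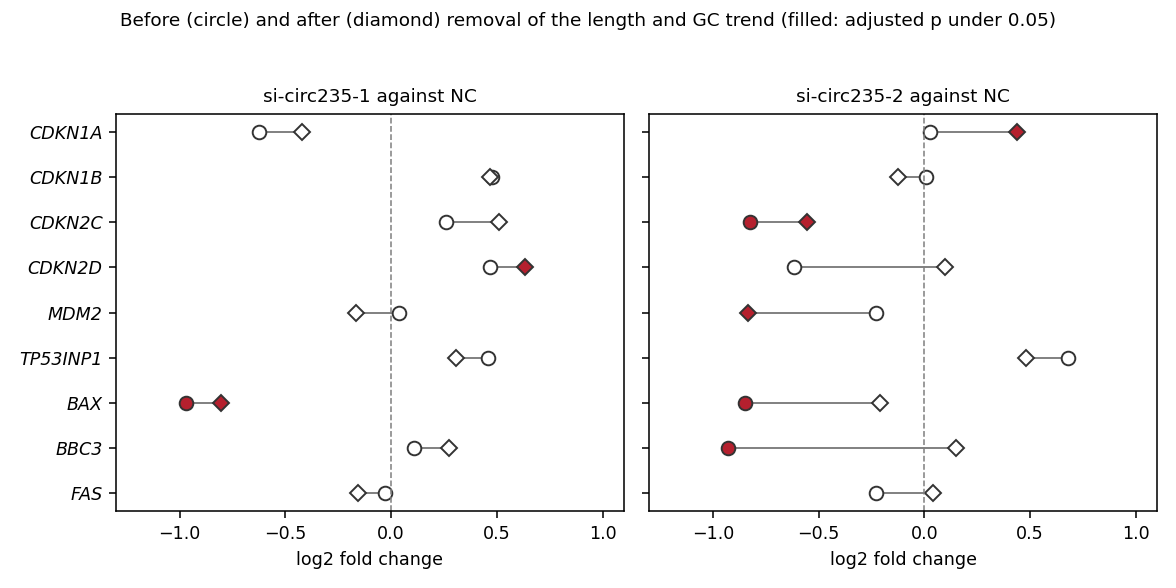
Log2 fold change (horizontal axis) of the 9 genes under each siRNA against NC before (circles) and after (diamonds) removal of the length and GC trend, with filled symbols for edgeR adjusted p under 0.05. Under si-circ235-2 BBC3 moved from -0.93 to 0.15 and MDM2 from -0.23 to -0.84, while under si-circ235-1 BAX stayed filled, at -0.97 and -0.81.

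Across the 6 libraries, CDKN2C was close to CDKN2D (Pearson r of log2 CPM 0.957) and to BBC3 (0.918), and CDKN1A ran against CDKN1B (-0.887). These values describe 6 points that fall into 3 groups and share library effects. The tested genes with a mean of at least 10 CPM whose pattern was most like that of CDKN1A were SLC29A1, AC092171.2, C8orf33, STARD7 and WHRN, with r from 0.992 upwards, and 506 of 8994 genes reached 0.9. For MDM2 they were SPAG16, CD58, VCPKMT, COMMD3 and MRPS31, with r from 0.979 upwards, and 131 genes reached 0.9. With 6 points, many genes reach such values.

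The labelled cell type was set against its markers. Of 16 urothelial and epithelial genes, 7 were tested, and UPK1A, UPK1B, UPK2, UPK3A, KRT5, KRT19, KRT20, TP63 and CDH1 were below 1 CPM in every library, 2 of them at 0 throughout. KRT8 had 2161 and 1541 CPM in NC, 1386 and 1109 in si-circ235-1, and 1766 and 1497 in si-circ235-2. KRT18 had 2146 and 1414 CPM in NC, 2266 and 2307 in si-circ235-1, and 1194 and 939 in si-circ235-2. The summed level of these markers was 5593 and 3925 CPM in NC, 4635 and 4312 in si-circ235-1, and 3697 and 3112 in si-circ235-2. PPARG was called higher under each siRNA (0.90 and 1.13), and KRT7 lower under si-circ235-2 (-0.76). The call of KRT7 was lost without TMM factors (-0.49) and in the trend-free fit (0.01), and that of PPARG under si-circ235-1 without TMM factors (0.82, adjusted p = 0.0512, edgeR). Of 10 markers of leukocytes, endothelium, fibroblasts and muscle, 9 were below 1 CPM in every library, 3 of them at 0, and COL1A1 was at 1.47 CPM or less. Their sum stayed between 1.47 and 2.87 CPM in each library.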

How the data were processed

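NC, si-circ235-1 and si-circ235-2 gave 2 libraries of T24 cells each. The authors deposited raw counts per gene, in whole numbers, from oligo dT selected RNA sequenced with a protocol that does not keep the strand. The submitters' processing notes name FastQC, cutadapt, STAR and hg38, and the counting tool, like its annotation and all versions, is not given in the sources used here. Where genes overlap, reads may have been counted for the wrong one. The libraries held 15373992 to 19912893 counts. Replicates differed by more than sampling noise (chi-square per degree of freedom 36.7, 28.6 and 23.9).

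GENCODE release 29 (GRCh38), which held 99.5% of the identifiers, gave symbols, coordinates, 3' UTRs, and the length and GC content of the longest transcript. Tests used edgeR 4.0.16 in R 4.3.3 (TMM, filterByExpr with the condition as group, quasi-likelihood, 1 mean per condition over all 6 libraries, Benjamini-Hochberg adjustment over 14415 genes, threshold 0.05). Standard errors were derived from the log2 fold change and the F value of each edgeR test, and the 95% intervals from these with a t quantile. Alternatives were DESeq2 1.42.0, no TMM factors, DESeq2 size factors, no filter, the replicate number as a block, removal of a length and GC trend (splines with 5 degrees of freedom), the 2 conditions alone, and each library left out, where a lone library is assumed to vary like the other groups. P-values measure only the spread between these libraries. The edgeR comparisons were tested on simulated data, where most of the smaller changes were missed and a few unchanged genes were called.

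The 9 genes and all gene lists were chosen with earlier results of these data known. Named genes are the 9, up to 3 called higher and 3 lower per list and comparison with a mean of at least 5 CPM, 11 further genes of interest whatever their call, the 5 genes most like CDKN1A and MDM2, and, where a count was 5 or fewer, the genes counted. Some genes of the lists are counted but not reported here by name.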

Additional observations from a re-analysis of the deposited data

How the results depend on the processing

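Of 351 log2 fold changes of the 9 genes under 13 alternatives, 299 kept their direction and their side of the threshold, 17 lost and 10 gained a call, and 25 changed sign, among them BBC3 under si-circ235-2, a called value, with the trend over length and GC content removed (0.15). The other sign changes were in values that were not called. With the trend removed these were MDM2 (-0.17) under si-circ235-1, CDKN1B (-0.12), CDKN2D (0.10) and FAS (0.039) under si-circ235-2, and FAS (0.195) between the siRNAs. Without TMM factors, the median over all genes was -0.11, 0.25 and 0.37 in the 3 comparisons, and they were MDM2 (-0.046), MDM2 (0.030) and FAS (0.023), and MDM2 (0.075) and FAS (0.15), in the same order, and relative to those medians none of the last 4 was above 0. CDKN1B under si-circ235-2 was -0.0019 with DESeq2 size factors and -6.1e-05 without the filter. With each library left out, the ranges were -0.093 to 0.15 (MDM2), -0.21 to 0.37 (BBC3) and -0.24 to 0.25 (FAS) under si-circ235-1, -0.10 to 0.14 (CDKN1A), -0.12 to 0.16 (CDKN1B) and -0.65 to 0.088 (FAS) under si-circ235-2, and -0.069 to 0.29 (BAX) and -0.62 to 0.12 (FAS) between the siRNAs.

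Under si-circ235-1, 847 genes were called, against 1336 by DESeq2, 1678 without the filter, 1891 with the trend removed, 1642 with the 2 conditions alone and 0 to 1482 with a library left out. The 0 was without si-circ235-1 replicate 2, where 2110 had an unadjusted p under 0.05 in edgeR. Of the 9 genes, 2 were called by DESeq2, without TMM factors (each time BAX and CDKN1A) and with the trend removed, and 0 to 1 with a library left out. The p53 targets called were 1 without TMM factors, 6 with the trend removed and 0 to 4 with a library left out. Under si-circ235-2, 1 of the 9 was called without TMM factors (BAX). With a library left out, 769 to 4240 genes, 0 to 4 of the 9 and 1 to 15 targets were called, the lowest each time without NC replicate 1, and 9 targets and 1 of the 9 without si-circ235-2 replicate 2. Between the siRNAs these were 2817 to 5558 genes, 3 to 4 of the 9 and 8 to 13 targets, lowest in genes and targets without si-circ235-1 replicate 2. Without TMM factors, the split was 3173 higher and 1294 lower for si-circ235-2, against 2270 and 2260 with them, and 179 higher and 529 lower for si-circ235-1, against 323 and 524. Between the siRNAs these were 4534 and 1496, against 3047 and 2678. The cause of these changes was not tested. Replicates share a number in the labels. The difference between replicate 1 and replicate 2 was correlated between groups over 14415 genes. These correlations were only -0.105 for NC with si-circ235-1, 0.172 for NC with si-circ235-2 and 0.162 for the 2 siRNAs. With the replicate number as a block, 937, 4750 and 6043 genes were called, and 1, 3 and 4 of the 9.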

Other observations

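Genes of the caspase list that differed between replicates were looked at after their values were seen. BIRC3, an inhibitor of apoptosis driven by NF-kB, had 50.9 and 50.3 CPM in NC, 60.2 and 77.1 in si-circ235-1, and 12.7 and 56.3 in si-circ235-2. The si-circ235-2 libraries thus lay on either side of NC, and its log2 fold change of -0.55 was not called (adjusted p = 0.411, edgeR). DIABLO, which releases caspases from such inhibitors, had 44 and 4 counts in the si-circ235-1 libraries and 30 and 106 in those of si-circ235-2, beside 14 and 32 in NC. It was called in no comparison by edgeR as fitted here. Without the filter on low counts, edgeR called DIABLO under si-circ235-2 against NC, and both DIABLO and BIRC3 between the siRNAs.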
